A study of Mus musculus with 6 samples.

Results

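Venous endothelial cells of mouse lung were selected from single-cell RNA sequencing of WT and TNF-Tg mice by the genes detected in each cell. A cell entered the endothelial gate when at least 3 of *Pecam1*, *Cdh5*, *Cldn5*, *Tie1*, and *Egfl7* had a UMI, and the venous gate when at least 2 of 4 venous markers, *Selp*, *Bst1*, *Amigo2*, and *Lhx6*, were also detected. Cells with aerocyte, arterial, lymphatic, or proliferation genes were then dropped. The gate left 1509 venous-gated cells among 31669 endothelial cells and 38208 cells in all. TNF-Tg mice carry a human TNF transgene and develop pulmonary hypertension, and WT littermates were the controls. All mice were female, and lungs of 3 to 5 mice were pooled for each of the 6 libraries, 1 per genotype for mice aged 8, 14, or 20 weeks. Suspensions were sorted for live (7-AAD-) cells that lacked CD45, a leukocyte marker, and CD326, an epithelial marker. Each age has 1 library per genotype, so the 3 ages served as the replicates of a genotype (n = 3 each) and the spread between them includes age. The human transgene is not among the 32285 mouse genes counted, so its level gives no check of the genotype labels.

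Lung veins carry blood back to the left atrium, and their endothelium differs from the capillary bed around it in the genes that keep a vein a vein. The transcription factor Nr2f2 (COUP-TFII) maintains venous identity by holding back Notch signaling, which drives arterial genes. Venous endothelium is also a site where leukocytes leave the blood, since P-selectin (*Selp*) and von Willebrand factor (*Vwf*) are stored together in its Weibel-Palade bodies and TNF acting through TNF receptors and NF-kB raises adhesion molecules on its surface.

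The venous gate gave 200, 191, and 225 cells in the WT libraries at 8, 14, and 20 weeks and 226, 219, and 448 cells in the TNF-Tg libraries. Of the 1770 endothelial cells with at least 2 venous markers, 261 were dropped, 94 of them for aerocyte genes, 88 for arterial genes, 96 for proliferation genes, and 1 for lymphatic genes, with some meeting more than 1 criterion. *Bst1* with *Amigo2* was the commonest combination and was carried by 547 cells. Exactly 2 markers were detected in 921 cells (61.0%), 3 in 442, and 4 in 146, while 3565 endothelial cells held a single marker and stayed outside.

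The share of endothelial cells that passed the venous gate was 3.75%, 3.59%, and 3.66% in WT lungs and 3.76%, 4.60%, and 10.9% in TNF-Tg lungs at 8, 14, and 20 weeks. The 20-week TNF-Tg library stood apart, with an exact 95% binomial interval of 9.98% to 11.9% that covers counting error only. Because the share comes straight from the gate, it is given as a description with no test. Detection depends on depth, and the median venous-gated cell held 6318, 6547, and 6366 UMIs in WT libraries against 8588, 12192, and 12752 in TNF-Tg libraries. After every cell was thinned to 2000 UMIs before the gate, the shares were 1.85%, 1.53%, and 1.53% in WT and 1.31%, 1.09%, and 2.21% in TNF-Tg, with group means of 1.64% ± 0.185 (SD, n = 3) and 1.53% ± 0.592. Only the 20-week TNF-Tg library of the 3 then lay above every WT library. As a share of all cells rather than endothelial cells, that library was at 1.33% after thinning, against 1.52%, 1.31%, and 1.34% in WT. Without thinning its share of all cells was 7.06%, against 3.11%, 3.16%, and 3.23% in WT. *Selp*, which TNF is known to induce in mouse endothelium, was detected in 19.5%, 20.4%, and 24.0% of the WT venous-gated cells and in 15.0%, 35.2%, and 40.2% of the TNF-Tg cells, and a gate without it still gave 9.92% at 20 weeks in TNF-Tg.

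**Figure D1:**
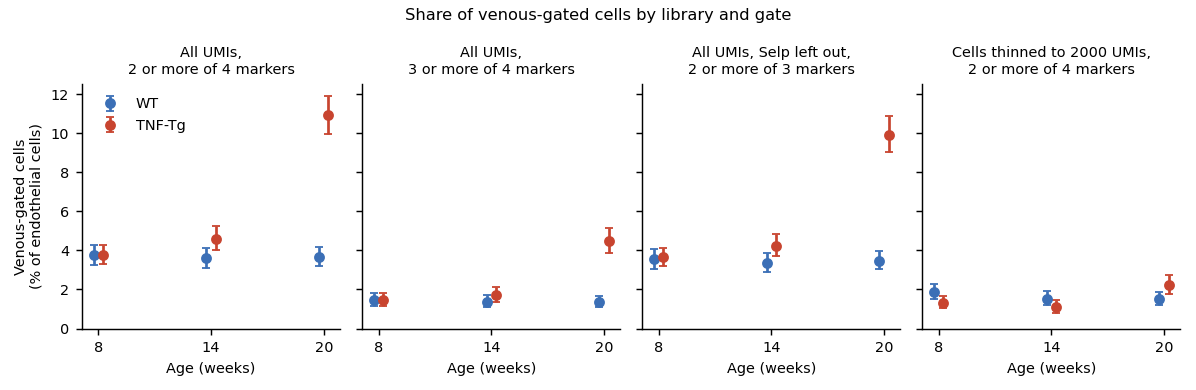
Share of endothelial cells in the venous gate (y axis, percent) by age in weeks (x axis) for the gate as defined, for at least 3 of the 4 markers, for the gate without *Selp*, and for cells thinned to 2000 UMIs. Points are single libraries and bars are exact 95% binomial intervals, and the TNF-Tg library at 20 weeks sits at 10.9% in the first panel and at 2.21% in the last.

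Genes that the gate did not use were checked against the venous label. Levels are given as CPM, the UMIs of a gene per 1000000 UMIs summed over the cells of a class in a library. *Vwf* stood at 4318, 4193, and 4053 CPM in WT venous-gated cells and at 382, 451, and 423 CPM in the other endothelial cells of the same libraries. *Slc6a2*, the norepinephrine transporter, was at 1287, 1517, and 1197 CPM against 12.7, 33.0, and 29.0 CPM. *Nr2f2* measured 262, 243, and 240.0 CPM against 27.5, 25.5, and 20.6 CPM. In each of these comparisons the lowest venous-gated value lay above the highest value of the other cells. The serine protease gene *Prss23*, the carbonic anhydrase-related gene *Car8*, the prothrombinase gene *Fgl2*, and *Lrg1* were higher by log2 differences of 3.22, 5.02, 4.75, and 4.15 over both genotypes. Of the 20 genes in the venous identity list, 18 were higher in venous-gated than in other endothelial cells at an edgeR false discovery rate (FDR) under 0.05, where 8.62% of 14092 genes were. This is a description, since cells chosen by 4 venous genes are also selected for whatever accompanies them.

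Arterial-gated cells were the other large-vessel class. A mean of 1.96 CPM of *Nr2f2* and 0.935 CPM of *Slc6a2* was found in arterial-gated cells of WT lungs, whereas *Vwf* reached 2981 CPM there. The arterial ligand gene *Efnb2* was at 65.3, 60.0, and 58.7 CPM in WT venous-gated cells against a mean of 1142 CPM in arterial-gated cells. *Vwf* was thus abundant in both kinds of large vessel, and *Slc6a2* and *Nr2f2* in the venous-gated cells. Of the same 20 venous identity genes, 16 were higher in venous-gated than in arterial-gated cells (7.19% of 10090 genes were), and 14 of 17 arterial identity genes were lower (7.05% of genes were). These counts are a description too. Arterial-gated cells had to hold fewer than 2 venous markers, and venous-gated cells with 2 arterial genes were dropped, so the classes were selected to differ in such genes.

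The levels of *Nr2f2* and *Vwf*, which the gate did not use, varied with the number of markers in a cell. In all 6 libraries cells with exactly 2 markers held less of both genes than cells with 3 or 4. For *Nr2f2* the 2-marker cells held 217, 172, and 216 CPM in WT against 202, 82.8, and 134 CPM in TNF-Tg, and the cells with 3 or 4 markers held 324, 338, and 270.3 CPM in WT against 429, 347, and 358 CPM in TNF-Tg. For *Vwf* the 2-marker cells held 4040, 3828, and 3920 CPM in WT against 1149, 202, and 326 CPM in TNF-Tg, and the cells with 3 or 4 markers held 4702, 4687, and 4221 CPM in WT against 2934, 968, and 1169 CPM in TNF-Tg. Single-marker cells that met none of the criteria for dropping, 603 and 654 cells in TNF-Tg at 14 and 20 weeks, had 46.9 and 49.8 CPM of *Nr2f2* and 61.3 and 30.2 CPM of *Vwf*. Markers of other cell types were measured in the same sums. Red blood cell genes summed to 6138 CPM in the 8-week WT library, led by *Hbb-bs* at 3072 CPM, and to 214 CPM or less in the other 5. Smooth muscle genes reached 649.8 CPM at 14 weeks and 362 CPM at 20 weeks in TNF-Tg, fibroblast genes ranged from 21.5 to 512 CPM over the 6 libraries, and immune genes reached 146 CPM in the 20-week TNF-Tg library with *Lyz2* at 111 CPM. Platelet genes summed to at most 10.8 CPM and *Pf4* was at 0 in all 3 WT libraries. In all, 321 venous-gated cells carried 2 or more markers of another lineage, which was 36.5%, 7.85%, and 2.67% of those cells in WT and 41.2%, 26.9%, and 16.7% in TNF-Tg at 8, 14, and 20 weeks. A fit without them gave 1477 genotype calls.

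The genotype comparison asked how gene expression in venous endothelium differed between TNF-Tg and WT lungs. Of 9956 genes tested with edgeR, 1299 (13.0%) were called at an FDR under 0.05, with 673 higher (6.76%) and 626 lower (6.29%) in TNF-Tg. For 1293 of the called genes every TNF-Tg library lay on 1 side of every WT library, and over all tested genes 21.0% were higher without overlap and 13.5% lower without overlap. Of the genes called lower, 512 of 626 (81.8%) were highest at 8 weeks among the TNF-Tg libraries, and of the genes called higher, 462 of 673 (68.6%) were lowest at 8 weeks. Over all tested genes, the 8-week TNF-Tg value lay outside the range of the 14- and 20-week values, on either side, for 80.3%. That share counts both sides, so it is no direct background for the 1-sided shares of the called genes. On the scale of log2(CPM + 1), the median called gene had covered 56.7% of its decrease or 75.1% of its increase at 8 weeks, relative to the mean of 14 and 20 weeks. The 8-week library was itself a replicate in that fit, so genes that changed little by 8 weeks were harder to call. These medians thus depend on which genes were called, and they have no background over all tested genes. The number of calls depended on each library, with 351, 162, and 309 calls when the 8-, 14-, or 20-week WT library was left out and 2959, 385, and 412 when the TNF-Tg library of that age was. With at least 3 markers, 610 genes were called and 552 of them were among the 1299.

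Of 20 venous identity genes tested, 10 were lower in TNF-Tg, 2 were higher, and 8 were not called, where 6.29% of all tested genes were lower and 6.76% higher. Their median log2 fold change was -0.87, and that of all tested genes was -0.0040. The gene lists were chosen with earlier results of these data known, so this and the later list counts are descriptions. *Vwf* (chr6:125546774-125686679, plus strand, GRCm38) dropped from 4318, 4193, and 4053 CPM in WT to 1907, 520.0, and 699 CPM in TNF-Tg, and every TNF-Tg library lay below every WT library (log2 fold change -2.07 ± 0.42 SE, edgeR FDR 0.0185). Its call was held in 2 of the 6 fits that left out 1 library and the FDR reached 0.0866 in the others, and among cells with at least 3 markers the log2 fold change was -1.51. *Lyve1*, a hyaluronan receptor best known from lymphatic vessels, went from 1391, 1474, and 1222 CPM to 319, 22.2, and 44.5 CPM (-3.50 ± 0.84, FDR 0.0296). *Prss23* went from 1689.7, 1587, and 1543 CPM to 773, 154, and 209 CPM (-2.16 ± 0.52, FDR 0.0304). In both genes the 8-week library held the highest TNF-Tg value, and of the 6 fits without 1 library only that without it kept the call (FDR up to 0.114).

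*Slc6a2* (chr8:92960079-93001667, plus strand) had the widest spread of these. It measured 1287, 1517, and 1197 CPM in WT against 335, 22.5, and 9.45 CPM in TNF-Tg, a log2 fold change of -3.56 ± 1.09 that missed the threshold (FDR 0.0649) although the genotypes did not overlap. It was called in 6 of 17 alternatives, among them age as a block (-5.11, FDR 0.0238). Without the 8-week TNF-Tg library the difference was -6.52 (FDR 1.01e-06). In cells thinned to 2000 UMIs, a *Slc6a2* UMI was found in 73.9%, 77.9%, and 75.2% of WT venous-gated cells and in 35.4%, 2.7%, and 1.6% of TNF-Tg cells, where 0% to 0.6% of fibroblasts, which should lack it, had one. Without thinning the shares were 83.5%, 87.4%, and 86.7% in WT and 48.7%, 6.4%, and 5.8% in TNF-Tg, and thinning left out 1, 1, and 3 WT cells. For *Vwf* the thinned shares were 96.0%, 97.9%, and 94.1% in WT and 69.0%, 22.8%, and 29.9% in TNF-Tg, against at most 2.3% of fibroblasts, and 98.0%, 98.4%, and 97.3% and 75.7%, 34.2%, and 38.6% without thinning. For these and later thinned shares, cells passed the gate at full depth and only the detection of the gene was thinned. They are therefore not matched for depth at the gate. With cells thinned before the gate, 89, 74, and 88 WT and 76, 47, and 83 TNF-Tg cells passed it.

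*Nr2f2* (chr7:70351944-70366735, minus strand) measured 299, 192, and 233 CPM in TNF-Tg against 262, 243, and 240.0 CPM in WT, a log2 difference of -0.10 ± 0.16 that was not called (FDR 0.728). *Nr2f2* and *Vcam1*, below, were singled out after their values were seen. *Lrg1* (-0.38 ± 0.19, FDR 0.223) and *Pgm5* (-0.36 ± 0.26, FDR 0.391) were not called either, but both were called lower without the 8-week TNF-Tg library (-0.54, FDR 0.0366, and -0.68, FDR 0.0138). *Il1r1*, the interleukin-1 receptor, rose from 43.3, 36.2, and 37.1 CPM to 72.0, 95.5, and 105 CPM (1.19 ± 0.18, FDR 0.0069). *Nrp2*, a coreceptor for VEGF-C and semaphorins, rose from 117, 132, and 142 CPM to 172, 236, and 238 CPM (0.68 ± 0.17, FDR 0.0318). *Vegfc* itself fell from 410.4, 354, and 324 CPM to 169, 56.2, and 68.4 CPM (-1.97 ± 0.36, FDR 0.0125). *Ackr1*, the atypical chemokine receptor that marks venules, was at 6.39, 2.17, and 72.4 CPM in WT against 56.1, 139, and 159.7 CPM in TNF-Tg. Its groups overlapped at the 20-week WT library and the difference was not called (2.05 ± 0.83, FDR 0.139). It was called in 5 of 17 alternatives, and without that library it was 4.74 (FDR 0.033). Without thinning, an *Ackr1* UMI was found in 2.5%, 1.05%, and 4.44% of WT and 15.0%, 27.9%, and 31.9% of TNF-Tg venous-gated cells. In thinned cells these shares were 0.50%, 0%, and 2.70% against 7.52%, 16.9%, and 16.1%. The *Ackr1* shares thus did not overlap between genotypes, unlike the CPM, and they were not tested.

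**Figure D2:**
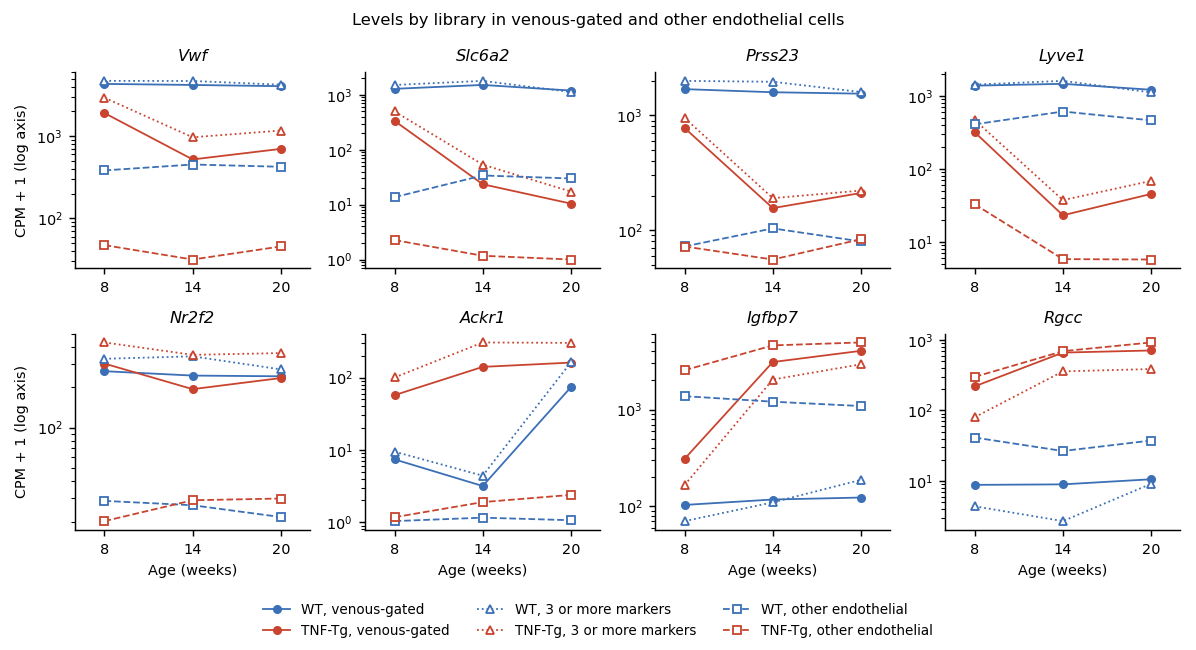
Levels of 8 genes (y axis, CPM plus 1 on a log axis) by age in weeks (x axis). Filled circles are venous-gated cells, triangles the subset with at least 3 markers, and open squares other endothelial cells, with lines joining libraries of 1 genotype and class. *Vwf*, *Slc6a2*, *Prss23*, and *Lyve1* fall between 8 and 14 weeks in TNF-Tg while *Nr2f2* stays between 192 and 299 CPM, and *Igfbp7* climbs from 309 to 4047 CPM.

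The 10 largest increases by the naming rule were all in genes that were also called higher in other endothelial cells, where 19.0% of genes were. *Rgcc*, a regulator of the cell cycle, rose from 7.81, 7.96, and 9.58 CPM to 219, 659.5, and 707 CPM (log2 fold change 5.91 ± 0.51, edgeR FDR 0.0012), and it was called in each of the 17 alternatives. *Igfbp7*, a secreted protein of the vascular matrix, rose from 102, 116, and 122 CPM to 309, 3098, and 4047 CPM (4.42 ± 0.79, FDR 0.0115), with 3 of the 6 fits without 1 library keeping the call and the FDR reaching 0.0856 in the others. In other endothelial cells it already stood at 1374, 1205, and 1086 CPM in WT. *Prnd*, a prion-like gene, had 1 UMI in all WT venous-gated cells together and 3998 in TNF-Tg, a ratio of 1571 after allowing for depth with a 95% counting interval of 282 to 62057. It was at 28.5 CPM at 8 weeks and at 357 and 460 CPM later. *Marcksl1* and the homeobox gene *Msx1* rose by 4.13 ± 0.35 and 3.99 ± 0.28, and their calls were kept in every fit without 1 library. *Ltbp2*, *Meox1*, *Tox2*, and *Prnp* were also among them, with log2 fold changes from 3.42 to 5.84.

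Among the 10 largest decreases, *Cyp4b1*, a cytochrome P450 of the lung, fell from 308, 391, and 336 CPM to 22.0, 6.39, and 21.5 CPM (-4.41 ± 0.37, edgeR FDR 0.0012). The keratin gene *Krt80* fell from 56.1, 91.8, and 74.2 CPM to 6.07, 4.71, and 6.41 CPM (-3.70 ± 0.23, FDR 8.5e-04). Both were called in every fit without 1 library, as were *Nkd2*, an inhibitor of Wnt signaling (-3.62), *Ptprr* (-3.38), *Hopx* (-3.03), and *Pxdc1* (-2.92). *Lepr*, the leptin receptor, fell by 2.76 on the log2 scale, and *Aard* by 2.84. *Rgs5* fell from 99.4, 60.7, and 145 CPM to 27.6, 3.03, and 1.60 CPM (-3.63 ± 0.80, FDR 0.0236). *Rgs5* is abundant in pericytes, and summed pericyte markers were 49.7, 10.8, and 34.7 CPM in WT against 6.54, 21.9, and 3.84 CPM in TNF-Tg. Of the genes that the study named for endothelial cells, *Ptprb*, the vascular endothelial phosphatase that restrains Tie2, fell from 2712, 3046, and 2565 CPM to 1443, 525, and 676 CPM (-1.72 ± 0.33, FDR 0.0150). *Hpgd*, which inactivates prostaglandins, measured 3412, 3179, and 3682 CPM in WT against 2423, 332, and 125 CPM in TNF-Tg and was not called (-1.92 ± 0.86, FDR 0.176). Without the 8-week TNF-Tg library *Hpgd* was called, at -3.96 (FDR 2.3e-05). *Cd34* rose from 143, 121, and 192 CPM to 398, 726, and 695 CPM (1.95 ± 0.27, FDR 0.0050).

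Of 26 genes of TNF receptor and NF-kB signaling tested in venous-gated cells, 10 were higher, none was lower, and 16 were not called (6.76% and 6.29% of all tested genes were higher and lower), with a median log2 fold change of 0.61. *Tnfaip3*, which encodes the feedback inhibitor A20, went from 16.3, 21.7, and 18.0 CPM to 94.9, 112, and 130.2 CPM (2.55 ± 0.19, edgeR FDR 9.1e-04). *Nfkbie*, an inhibitor of NF-kB, rose by 2.39 ± 0.19 from 10.6, 9.40, and 12.6 CPM to 51.4, 67.3, and 59.4 CPM. Both genes stood far above every WT library already at 8 weeks. *Bcl3* and *Tnip1* rose by 2.14 and 1.90, and the noncanonical subunit genes *Nfkb2* and *Relb* by 1.73 and 1.69. *Traf3* and *Birc3*, which restrain the noncanonical arm, rose by 1.49 and 1.33, *Tnfaip2* by 0.96, and *Nfkbia*, the main inhibitor of the canonical arm, by 0.64 ± 0.14 from 489.9, 409, and 407 CPM to 665, 692, and 742 CPM. The receptor gene *Tnfrsf1a* was at 218, 179, and 210.1 CPM in WT against 193, 173, and 156 CPM in TNF-Tg (-0.27 ± 0.13, FDR 0.205).

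The promoters of 3 of these genes are shown because they rose together and hold a kB motif just before the start. The 100 bases before the RefSeq start (GRCm38.p6) are given 5′ to 3′ on the strand of the gene, with every match to the kB motif on either strand in capitals. The motif was read as GGG, any 2 bases, and then TTTCC or TTCCC. The regions are chr10:19015411-19015510 (minus strand) for *Tnfaip3*, chr12:55492648-55492747 (minus) for *Nfkbia*, and chr19:46304637-46304736 (plus) for *Nfkb2*.
Tnfaip3: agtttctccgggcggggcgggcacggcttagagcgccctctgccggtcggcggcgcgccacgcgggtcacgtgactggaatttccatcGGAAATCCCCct
Nfkbia: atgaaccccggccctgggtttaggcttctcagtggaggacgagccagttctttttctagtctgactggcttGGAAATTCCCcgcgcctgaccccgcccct
Nfkb2: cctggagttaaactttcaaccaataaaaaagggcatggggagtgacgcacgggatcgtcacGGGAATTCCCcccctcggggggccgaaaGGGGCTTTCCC
The match begins 12 bases before the start in *Tnfaip3* and 29 bases before it in *Nfkbia*, and in *Nfkb2* 1 match begins 39 bases before the start and an overlapping pair of matches 11 and 10 bases before it. In the window from 250 bases before to 50 after the start, 6 of the 9 called genes with a RefSeq window held a match (*Traf3*, *Nfkb2*, *Nfkbia*, *Tnfaip3*, *Tnip1*, and *Bcl3*), as did 2 of 11 list genes that were not called (*Traf2* and *Rel*), where 3.73% of 27025 genes with a window did. *Relb* had no RefSeq window, and neither did *Tradd*, *Nfkb1*, *Nfkbiz*, *Tnfaip8*, and *Map3k8* among the list genes that were not called. A match is a description of letters and not of binding.

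Of 16 leukocyte adhesion genes tested, 2 were higher (*Cd34* and *F11r*), 5 were lower, and 9 were not called, against 6.76% higher and 6.29% lower of all tested genes, with a median log2 fold change of -0.04. *Vcam1*, the ligand of the integrin VLA-4, measured 310.3, 456, and 599.7 CPM in WT venous-gated cells and 396, 475, and 541 CPM in TNF-Tg, with overlapping genotypes and a difference of 0.00 ± 0.24 (edgeR FDR 0.997). A *Vcam1* UMI was found in 56%, 60.7%, and 62.2% of WT and 61.5%, 72.6%, and 85.3% of TNF-Tg venous-gated cells without thinning. In thinned cells the *Vcam1* shares were 29.6%, 31.1%, and 41.4% against 37.6%, 40.2%, and 50%. Both ways, the TNF-Tg share lay above the WT share of the same age, although the genotypes overlapped. The *Vcam1* shares were not tested. *Icam1* measured 279.7, 293, and 277 CPM in WT against 223, 307, and 299 CPM in TNF-Tg (-0.08 ± 0.16, FDR 0.775). *Sele*, encoding E-selectin, was at 0, 24.6, and 6.58 CPM and at 2.80, 33.0, and 32.7 CPM, with a wide error (1.18 ± 0.95, FDR 0.438). Without thinning, a *Sele* UMI was found in 0%, 0.52%, and 1.78% of WT and 1.77%, 14.6%, and 16.3% of TNF-Tg venous-gated cells. In thinned cells these shares were 0%, 0.53%, and 0% against 0.44%, 4.11%, and 4.46%. Both ways, the 14- and 20-week TNF-Tg shares lay above every WT share and the 8-week share did not. The *Sele* shares were not tested. *Selp* was used by the gate and is given as values only, at 42.6, 57.1, and 124 CPM in WT against 41.1, 106, and 119.6 CPM in TNF-Tg. *Cd44*, a hyaluronan receptor, fell from 68.9, 56.4, and 80.2 CPM to 19.6, 9.75, and 21.9 CPM (-2.02 ± 0.27, FDR 0.0045). *Podxl*, *Cd99l2*, *Cd47*, and *Jam2* fell by 0.91, 0.72, 0.64, and 0.53 on the log2 scale.

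Few chemokine genes were abundant enough to test. Of 25 in the list 8 were tested, with 2 higher and 1 lower (6.76% and 6.29% of all tested genes were) and a median of 0.07. *Cxcl12*, a chemokine of arterial and capillary endothelium that retains CXCR4-bearing cells, rose from 212, 197, and 181 CPM to 932, 568, and 646 CPM (1.80 ± 0.19, edgeR FDR 0.0023), and it was called in all 17 alternatives. *Cxcl16* rose by 1.12 ± 0.29. *Il33*, an alarmin kept in endothelial nuclei, fell from 42.6, 34.7, and 23.3 CPM to 17.8, 9.75, and 6.41 CPM (-1.71 ± 0.37, FDR 0.0231). No interferon-response gene was called higher among 24 tested, and the guanosine triphosphatase genes *Igtp*, *Gbp2*, and *Gbp7* fell by 1.40, 1.22, and 0.93, and the median was -0.33. Of 18 antigen presentation genes, *Cd74*, the invariant chain of MHC class II, was the single call, a share near the 6.76% of all tested genes called higher, and rose from 746, 789.7, and 744 CPM to 1989, 2219, and 1536 CPM (1.28 ± 0.16, FDR 0.0037).

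**Figure D3:**
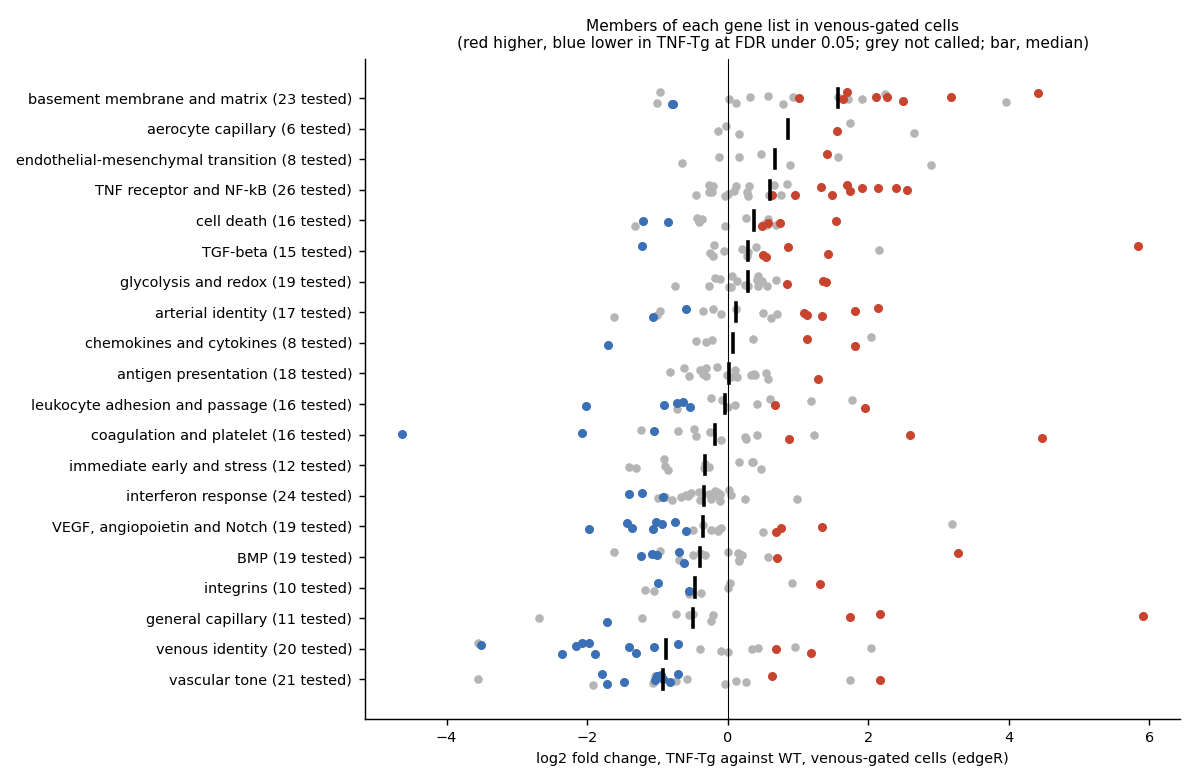
Log2 fold change between TNF-Tg and WT venous-gated cells (x axis) for the tested members of 20 gene lists for endothelial roles (y axis, with the number tested). Points are genes, red if higher and blue if lower at an edgeR FDR under 0.05 and grey otherwise, and black bars are list medians, which run from -0.92 for vascular tone to 1.57 for basement membrane and matrix.

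Vascular tone genes had the lowest median of the 20 lists for endothelial roles with at least 5 tested genes, at -0.92 over 21 tested genes, with 9 lower and 2 higher (6.29% and 6.76% of all tested genes were). The prostaglandin synthases fell, *Ptgs1* (COX-1) from 258, 287, and 256 CPM to 155, 50.1, and 41.6 CPM (-1.79 ± 0.43, edgeR FDR 0.0296) and *Ptgs2* (COX-2) from 83.8, 133, and 135 CPM to 66.8, 23.2, and 25.6 CPM (-1.71 ± 0.38, FDR 0.0236). *Ptgis*, the prostacyclin synthase gene, also fell, from 203, 171, and 216 CPM to 142, 128, and 106 CPM (-0.71 ± 0.15). Also lower were *Ace* (-1.04), *Ece1* (-0.95), the natriuretic peptide receptor genes *Npr1* (-1.001) and *Npr3* (-1.48), and *Ramp2* (-0.92), a subunit of the adrenomedullin receptor. *Ddah1* fell by 0.82 and *Ddah2*, which like it breaks down an inhibitor of nitric oxide synthase, rose by 0.63. *Aplnr*, the apelin receptor, rose from 78.8, 26.8, and 32.3 CPM to 218, 230.4, and 189.9 CPM (2.16 ± 0.34, FDR 0.0073). For *Ptgs2* the log2 fold change ran from -2.29 to -0.97 over the 17 alternatives, and 11 of them kept the call.

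Among coagulation genes *F2r*, the thrombin receptor PAR1, rose from 19.9, 8.68, and 22.1 CPM to 89.3, 117, and 112 CPM (2.59 ± 0.27, edgeR FDR 0.0023). *Serpine2* rose by 0.87. *Vwf* fell, as did the ectonucleotidase genes *Entpd1* (-1.05 ± 0.24) and *Nt5e*, whose products clear ATP and make adenosine. *Nt5e* was at 6.39, 5.79, and 9.58 CPM in WT and at 0, 0, and 0.480 CPM in TNF-Tg. In all, 3 of 16 were higher, 3 lower, and 10 not called, where 6.76% of all tested genes were higher and 6.29% lower.

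BMP signaling, the pathway named in the title of the study, is often reduced in pulmonary hypertension through its receptor Bmpr2. In venous-gated cells *Bmpr2* fell from 992, 1159, and 1120.4 CPM to 831, 435, and 437 CPM (-1.002 ± 0.24, edgeR FDR 0.0304), and the partner receptor *Acvrl1* from 778, 891, and 889 CPM to 619.6, 328, and 317 CPM (-1.08 ± 0.24, FDR 0.0254). Both calls were lost in 5 of the 6 fits without 1 library (FDR up to 0.123) and kept without the 8-week TNF-Tg library. The inhibitory Smad genes *Smad6* (149, 182, and 140.0 CPM to 65.4, 63.2, and 76.7 CPM, -1.24 ± 0.15) and *Smad7* (-0.63) and the target *Id2* (-0.69) fell, and *Smad6* kept its call in each of the 17 alternatives. Among the ligands, *Bmp2* rose from 2.13, 9.40, and 2.39 CPM to 39.7, 41.7, and 53.8 CPM (3.27 ± 0.41, FDR 0.0036), and *Bmp4* measured 167, 142, and 140.0 CPM in WT against 129, 43.4, and 69.8 CPM in TNF-Tg without a call (-0.97 ± 0.32, FDR 0.0818). With *Smad5*, 2 of 19 genes were higher and 5 lower, where 6.76% and 6.29% of all tested genes were, and the median was -0.40.

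Of 15 transforming growth factor-beta genes tested, 5 were higher and 1 lower (6.76% and 6.29% of all tested genes were), with a median of 0.29. *Ltbp2* and *Ltbp1*, which encode binding proteins of latent TGF-beta, rose by 5.84 ± 1.23 and 0.86 ± 0.13, and *Tgfb1* by 0.50. *Tgfbr3*, the coreceptor betaglycan, fell from 116, 96.9, and 113 CPM to 48.1, 45.7, and 50.1 CPM (-1.22 ± 0.13, edgeR FDR 0.0023). The basement membrane list had the highest median of those 20 lists, 1.57 over 23 tested genes, with 8 higher and 2 lower, where 6.76% and 6.29% of all tested genes were. *Sparc* rose from 379, 223, and 293 CPM to 1185, 1992, and 2008 CPM (2.49 ± 0.28, FDR 0.0026). *Col4a1* and *Col4a2*, the collagen IV chains, rose by 2.11 ± 0.25 and 2.26 ± 0.28, from 483, 413, and 463 CPM to 1301, 2392, and 2371 CPM for the first. *Hspg2* (perlecan) rose from 36.9, 14.5, and 38.9 CPM to 110.3, 334, and 396 CPM (3.17 ± 0.52, FDR 0.0078), and *Lama4* and *Lamc1* by 1.70 and 1.64. *Bgn* and *Lamb2* fell by 0.79 and 0.78. Fibroblasts and smooth muscle cells make many of these proteins too. Summed fibroblast markers in the same sums were 512, 187, and 21.5 CPM in WT against 22.0, 469, and 183 CPM in TNF-Tg, and summed smooth muscle markers were 183, 120.05, and 65.2 CPM and 29.4, 649.8, and 362 CPM. Without the cells that held 2 or more markers of another lineage, *Sparc* rose by 2.78 and *Col4a1* by 2.31. The part of RNA from other cell types in these increases was not tested.

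Of 19 VEGF, angiopoietin, and Notch genes tested, 8 were lower and 3 higher (6.29% and 6.76% of all tested genes were). *Flt1*, the VEGF receptor that acts as a decoy, fell from 971, 1191, and 1101 CPM to 593, 309, and 352 CPM (-1.44 ± 0.23, edgeR FDR 0.0076), *Tek* (Tie2) from 586, 581, and 567 CPM to 461, 214, and 215 CPM (-1.03 ± 0.27), and *Dll1*, a Notch ligand, from 124, 159, and 151 CPM to 70.1, 58.2, and 47.9 CPM (-1.37 ± 0.16). Arterial identity genes gave 5 higher and 2 lower of 17, among them *Unc5b* (2.14 ± 0.32), *Cxcl12*, *Jag2* (1.35 ± 0.20), and *Sox17* (1.08) on the higher side and *Jag1* and *Notch1* on the lower. *Hey1*, a target of arterial Notch signaling, was at 29.8, 26.0, and 26.9 CPM in WT against 28.0, 24.9, and 27.4 CPM in TNF-Tg (-0.09 ± 0.15, FDR 0.765). Of 16 cell death genes, *Trp53* rose by 1.54 ± 0.23 and *Bax*, *Bak1*, and *Casp8* rose with it, and *Fas* and *Cdkn1a* fell by 1.21 and 0.85. *Eno1*, *Txnrd1*, and *Hmox1* were the calls among 19 glycolysis and redox genes, all higher. No call was made by edgeR among 12 immediate early and stress genes, where *Jun* stood at -0.86 ± 0.26 (FDR 0.067).

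Whether venous endothelium responded as the rest of the endothelium did was tested as a difference of the genotype effects between venous-gated and other endothelial cells of the same libraries. Of 14092 genes, 250 (1.77%) were called by edgeR, 115 (0.816%) with a more positive effect in venous-gated cells and 135 (0.958%) with a more negative one. Leaving out the 8-, 14-, or 20-week WT library gave 94, 64, and 63 calls, and leaving out the TNF-Tg library of that age gave 872, 218, and 112. In other endothelial cells, 37.0% of 14271 genes were called for genotype, from sums with many more cells.

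The share of venous-gated cells with a *Vcam1* UMI was higher in TNF-Tg than in WT at each age, as given above. By CPM, the genotype effect on *Vcam1* differed between the classes. In other endothelial cells *Vcam1* rose from 21.7, 27.4, and 25.1 CPM to 86.7, 129, and 201 CPM, while it stayed between 310 and 600 CPM in venous-gated cells of both genotypes, a difference of effects of -2.39 ± 0.21 (edgeR FDR 2.37e-04) that was called in each of 9 alternatives. *Tgfb2* gave the same pattern, with 103, 109, and 85.6 CPM in WT against 73.8, 103, and 117 CPM in TNF-Tg venous-gated cells against a rise from 11.7, 9.11, and 9.14 CPM to 45.9, 106, and 145 CPM elsewhere (-3.29 ± 0.23, FDR 1.1e-04). *Nrp2* rose in both classes, from 10.1, 10.0, and 11.7 CPM to 64.5, 118, and 143 CPM in other endothelial cells, and by less in venous-gated cells (-2.62 ± 0.17, FDR 8.30e-05). *Ch25h*, the cholesterol 25-hydroxylase, did the same, with 71.7, 66.5, and 109.5 CPM rising to 236, 209.9, and 181 CPM in venous-gated cells and 1.16, 2.17, and 1.58 CPM rising to 19.7, 26.3, and 42.8 CPM in the others (-2.84 ± 0.40, FDR 0.0053). All 4 genes were higher in venous-gated than in other WT cells, and the classes drew closer in TNF-Tg lungs.

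*Timp3*, an inhibitor of metalloproteinases, moved in opposite directions. It fell from 486, 536, and 399 CPM to 164, 118, and 172 CPM in venous-gated cells (-1.70 ± 0.18, edgeR FDR 0.0024) and rose from 287, 298, and 249.7 CPM to 396, 626, and 638 CPM in other endothelial cells (0.99, FDR 0.0086), a difference of -2.67 ± 0.22 (FDR 2.37e-04) that held in all 9 alternatives. *Cytl1*, a small cytokine-like protein, fell in venous-gated cells from 373, 503, and 363 CPM to 109, 48.8, and 50.8 CPM and was at 8.83 to 21.4 CPM in other endothelial cells throughout (-2.57 ± 0.49, FDR 0.0254). The *Cytl1* difference was called in 5 of 9 alternatives and was -1.39 with cells thinned before the gate. The difference of *Krt80* (-2.51 ± 0.20) was called in 8 of 9 and lost its call with thinned cells (-1.78, FDR 0.325). That of *Rgs5* (-3.35 ± 0.68, FDR 0.0342) was called in 4 of 9, was -0.61 with thinned cells (FDR 0.967), and was -5.11 without the 8-week TNF-Tg library.

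Other genes had a more positive effect in venous-gated cells. Of 11 general capillary genes tested for genotype in venous-gated cells, 3 were higher, 1 was lower (*Ptprb*), and 7 were not called. Their median log2 fold change was -0.50, and 6.76% and 6.29% of all tested genes were higher and lower. Of the same 11, 6 had a more positive effect than in other endothelial cells and 0 a more negative one, where 0.816% and 0.958% of genes did. *Kit*, a receptor tyrosine kinase of general capillary cells, rose in venous-gated cells from 107, 103, and 86.8 CPM to 379, 353, and 295 CPM (1.73 ± 0.15, edgeR FDR 0.0012), while in other endothelial cells it was at 445, 507, and 499 CPM in WT against 576, 368, and 324 CPM in TNF-Tg (difference of effects 1.98 ± 0.17, FDR 2.37e-04). A *Kit* UMI was found in 18.1%, 13.2%, and 11.7% of WT and 45.6%, 45.2%, and 39.7% of TNF-Tg venous-gated cells at 2000 UMIs, where at most 4.5% of fibroblasts had one, and in 30.5%, 26.7%, and 24.4% and 73.0%, 89.0%, and 83.5% without thinning. *Aplnr*, another capillary gene, gave a difference of 2.05 ± 0.31 (FDR 0.0080) that was called in 7 of 9 alternatives. *Ednrb*, the endothelin B receptor, fell in other endothelial cells from 289, 269, and 239.6 CPM to 85.3, 59.3, and 45.5 CPM and was at 11.4, 10.1, and 4.19 CPM and then 11.2, 35.0, and 38.0 CPM in venous-gated cells (3.93 ± 0.60, FDR 0.0077). *Gpr182* fell in both and by less in venous-gated cells (2.14 ± 0.31, FDR 0.00632). *Mctp1* fell from 48.0, 58.1, and 59.3 CPM to 10.1, 10.9, and 22.0 CPM in other endothelial cells and was at 28.4, 28.9, and 47.9 CPM and then 44.9, 81.4, and 84.2 CPM in venous-gated cells (2.93 ± 0.26, FDR 2.37e-04). *Prdm1*, a transcriptional repressor, had 1 UMI in WT and 295 in TNF-Tg venous-gated cells, a ratio of 116 with a counting interval of 20.6 to 4593, where other endothelial cells held it at 35.8 to 72.0 CPM in both genotypes. The difference of effects for *Prdm1* was called in 5 of 9 alternatives.

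**Figure D4:**
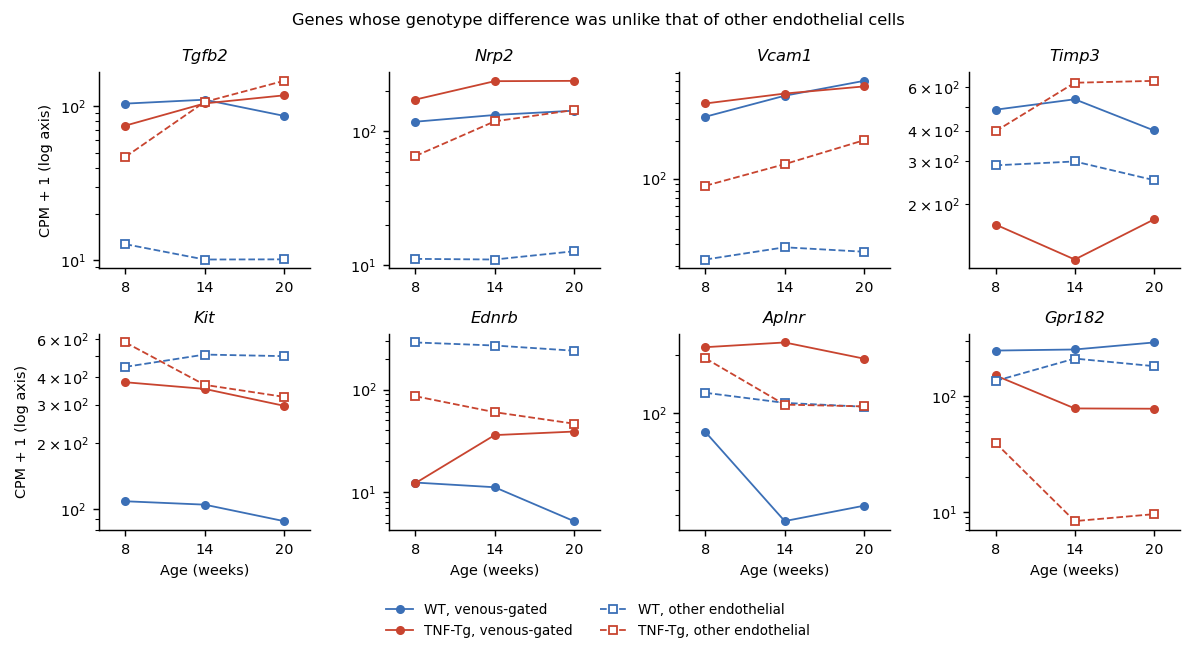
Levels of 8 genes (y axis, CPM plus 1 on a log axis) by age in weeks (x axis) in venous-gated cells (filled circles) and other endothelial cells (open squares), with lines joining libraries of 1 genotype and class. *Vcam1* and *Tgfb2* rise in other endothelial cells of TNF-Tg lungs and overlap between genotypes in venous-gated cells, *Timp3* moves in opposite directions, and *Kit* rises in venous-gated cells to 295 to 379 CPM.

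Of the 82 genes named by rule and called, 78 could be tested in cells with at least 3 markers and 62 were called there, and 27 of the 82 kept their call in each fit without 1 library. No alternative turned the sign of a called genotype difference among them.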

How the data were processed

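RNA of single lung cells was counted as unique molecular identifiers (UMIs). The authors made the UMI counts with Cell Ranger (5.0.0 for both 8-week libraries and 6.0.1 for the others per the file headers, mm10) and deposited them as whole-number counts without normalization for 43545 barcodes and 32285 genes. Libraries held 33680696 to 72655387 UMIs, and pairs of libraries shared 6 to 24 barcodes.

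A barcode was kept if it held 500 or more genes and no more than 10% mitochondrial UMIs. Other endothelial cells (29024) had fewer than 2 venous markers and fewer than 2 lymphatic or proliferation genes, and arterial-gated cells (655) at least 2 of *Gja5*, *Bmx*, and *Dkk2*. Cells with at least 3 aerocyte genes (*Car4*, *Fibin*, *Emp2*, *Tbx2*, *Chst1*, *Apln*), 2 arterial genes, 2 of *Prox1*, *Mmrn1*, and *Reln*, or 2 of *Mki67*, *Top2a*, and *Cenpf* were dropped from the venous gate. Counts were summed per library and class (1382762 to 6244015 UMIs for venous-gated cells) and tested with edgeR 4.0.16 (quasi-likelihood, filterByExpr, TMM, Benjamini-Hochberg FDR over all genes tested, called under 0.05). The SE was the size of the log2 fold change divided by the square root of F. Gate genes stayed in the fits and out of the counts. The scripts were tested on simulated data, where false calls exceeded the nominal rate, most for the difference of effects. No source ties separate pools to 1 age and genotype, so p-values measure the spread between libraries of different age. Replicates 1 to 3 are the ages in order.

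Scrublet doublet calls (57 venous-gated cells) were kept in the reported values. Genes were named by rule: genes that the study discusses, the 10 largest changes in each direction with at least 50 CPM and no overlap, up to 4 called genes per list with at least 20 CPM (the most abundant where none was called), the 8 largest differences of effects in each direction, and the 10 highest and 5 lowest genes against other endothelial cells. Some genes that the rule gave are not reported here. Other list members were named for their role after their values were seen. The gate, the members, and the 29 gene lists were chosen with earlier results of these data known. Alternatives covered normalization, DESeq2 1.42.0, filters, age as a block, gates, depth, doublets, and single libraries. Gene positions came from GENCODE on GRCm38 and promoters from RefSeq.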

Additional observations from a re-analysis of the deposited data

Results flagged for a closer look

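The 15 genes below were picked out because edgeR found their genotype effect to differ between venous-gated and other endothelial cells, and they were among the largest such differences by the naming rule. Log2 differences are the effect in venous-gated cells minus that in other endothelial cells. The differences of *Prdm1* (5.94), *Ltbp2* (3.98), *Ednrb* (3.93), *Mctp1* (2.93), *Gpr182* (2.14), and *Aplnr* (2.05) were positive.

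The differences of *Rgs5* (-3.35), *Tgfb2* (-3.29), *Ch25h* (-2.84), *Timp3* (-2.67), *Nrp2* (-2.62), *Cytl1* (-2.57), and *Krt80* (-2.51) were negative.

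Both of the most extreme values rest on few libraries. *Saa3*, an acute-phase gene, gave 6.56, with 154 CPM in venous-gated cells of the 20-week TNF-Tg library and at most 1.01 CPM in the other 5. *Igkc*, an immunoglobulin gene of B-lineage cells, gave -7.52, with 657 CPM in other endothelial cells of the 20-week TNF-Tg library and at most 4.59 CPM in the rest. Immune markers summed to 211 CPM in other endothelial cells and 146 CPM in venous-gated cells of that same library, and their part in these values was not tested.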

How the results depend on the processing

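The 1299 genotype calls among 9956 genes became 610 among 7976 (7.65%) with at least 3 markers and 271 among 2817 (9.62%) with cells thinned before the gate, and without 1 library they ranged from 162 to 2959. The 250 differences of effects among 14092 genes became 104 among 11428 with thinned cells and 63 to 872 without 1 library. Described alike, the 2822 genes that differed between venous-gated and other endothelial cells (20.0% of those tested) became 1413 with thinned cells and 1108 in the TNF-Tg libraries alone, which was added after seeing the data. The WT mean share of 3.67% became 1.39% with at least 3 markers, 3.46% without *Selp* in the gate, and 1.64% with thinned cells, and the TNF-Tg mean of 6.43% became 2.56%, 5.94%, and 1.53% under the same settings, so that it lay above the WT mean in the first and second and below it with thinned cells. The causes were not tested. *Igkc* changed sign, to 2.08 with thinned cells, 2.64 with at least 3 markers, and 0.65 without WT replicate 2 for the difference of effects (-7.84 to 0.65 without 1 library), and to 0.41 without TNF-Tg replicate 3 against other endothelial cells (-4.87 to 0.41 without 1 library). Other normalizations, filters, DESeq2, doublet removal, library sums thinned to equal totals, and removal of cells of other lineages gave 1057 to 1681 genotype calls. With age as a replicate block, 1379 genes were called, 1142 of them among the 1299, with *Slc6a2* (-5.11) and *Ackr1* (2.51) among the calls it added. Correlations of same-age deviations were 0.041, 0.148, and 0.071, and those of different-age deviations ran from -0.125 to 0.044. With 3 libraries per genotype, these values cannot decide whether age pairs the libraries.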
